A study of Mus musculus with 16 samples.

Results

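The genes described here are those of major histocompatibility complex (MHC) class I antigen presentation, in mouse embryonic stem cells with and without Dgcr8. They were chosen by symbol: the heavy chain genes H2-K1 and H2-D1, the related H2-Bl, the light chain gene B2m, the peptide transporter genes Tap1 and Tap2, the tapasin gene Tapbp and the transactivator gene Nlrc5. All 8 were found among the 41258 entries of the deposited expression table, and 7 of them reached at least 1 FPKM (fragments per kilobase of transcript, scaled to the size of the library, so a level per transcript length) in at least 2 of 8 libraries. Nlrc5 did not. The genes were chosen with earlier results of these data known, among them the drop of H2-Bl in knockout cells, so their values and differences are given as a description and without p-values.

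Class I molecules show fragments of a cell's own proteins to CD8 T cells. A heavy chain, encoded by H2-K1 or H2-D1 in mice, pairs with beta-2 microglobulin, the product of B2m. Peptides cut by the proteasome are pumped into the endoplasmic reticulum by the transporter made of TAP1 and TAP2, and tapasin holds empty class I molecules next to it until a peptide binds. NLRC5 is a transactivator that acts at class I promoters through a complex of RFX, CREB/ATF and NF-Y factors, and interferons raise most of these genes through interferon regulatory factors. Embryonic stem cells are known for low surface class I.

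The 8 libraries fell into 4 groups of 2, each pair labelled as biological replicates: Dgcr8-/- cells at 48 h of differentiation, Dgcr8-/- cells in 2iL, wild-type cells at 48 h and wild-type cells in 2iL. 2iL is a medium with inhibitors of MEK and GSK3 plus LIF that holds cells in naive pluripotency, and the cells at 48 h had been moved to N2B27 with bFGF and KSR. Every sample carries the same strain label, 129/C57BL/6, and passages 9 to 11. The wild-type columns are named v65 and the knockout titles ES1, so each genotype is 1 line, and genotype cannot be told apart from line; a difference in H2 haplotype between the lines was not tested. Dgcr8, whose product is needed to release most miRNA precursors, stood at 7.80 to 9.33 FPKM in the knockout libraries and at 18.3 to 20.9 FPKM in the wild-type libraries. The labels do not say whether the replicates came from separate cultures, so the errors below measure the spread between libraries only.

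The sequence before the annotated start is shown for the 5 genes that RefSeq's promoter table (build GRCm38.p6) holds, so that the letters can be read beside the levels of the genes they precede. Each run gives the 250 bases before the start, 5′ to 3′ on the gene's strand. Capitals mark matches, on either strand, to a kappaB site (GGGG, any base, then TTCCC), an interferon regulatory factor core (AANNGAAA), a cyclic AMP response core (TGACG) and a CCAAT box (CCAAT).
H2-K1, chr17:34000334-34000583, minus strand: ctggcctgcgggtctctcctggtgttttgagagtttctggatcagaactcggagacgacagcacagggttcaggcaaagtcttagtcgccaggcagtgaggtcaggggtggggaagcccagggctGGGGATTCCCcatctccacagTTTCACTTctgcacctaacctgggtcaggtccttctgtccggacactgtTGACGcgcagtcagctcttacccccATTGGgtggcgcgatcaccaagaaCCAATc
H2-D1, chr17:35262844-35263093, plus strand: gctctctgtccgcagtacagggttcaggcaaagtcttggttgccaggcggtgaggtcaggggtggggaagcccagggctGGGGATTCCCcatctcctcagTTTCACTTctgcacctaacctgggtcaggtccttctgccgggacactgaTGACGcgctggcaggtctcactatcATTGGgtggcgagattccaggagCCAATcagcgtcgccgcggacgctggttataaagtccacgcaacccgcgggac
B2m, chr2:122147437-122147686, plus strand: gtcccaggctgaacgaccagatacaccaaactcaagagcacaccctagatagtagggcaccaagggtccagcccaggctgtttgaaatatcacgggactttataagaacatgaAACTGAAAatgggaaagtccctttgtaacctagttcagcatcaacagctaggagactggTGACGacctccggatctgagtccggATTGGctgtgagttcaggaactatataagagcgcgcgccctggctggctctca
Tap1, chr17:34187306-34187555, plus strand: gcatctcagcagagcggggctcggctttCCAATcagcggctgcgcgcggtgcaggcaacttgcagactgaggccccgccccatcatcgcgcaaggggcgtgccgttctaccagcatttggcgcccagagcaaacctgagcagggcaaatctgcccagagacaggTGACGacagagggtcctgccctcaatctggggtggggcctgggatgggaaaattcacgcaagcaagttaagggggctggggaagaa
Tapbp, chr17:33919228-33919477, plus strand: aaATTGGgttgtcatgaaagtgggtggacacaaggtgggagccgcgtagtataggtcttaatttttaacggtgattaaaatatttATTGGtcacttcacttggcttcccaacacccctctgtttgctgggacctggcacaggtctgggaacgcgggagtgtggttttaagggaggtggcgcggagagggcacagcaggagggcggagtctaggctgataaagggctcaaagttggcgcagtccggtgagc

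The windows of H2-K1 and H2-D1 held the same 5 matches in the same order, from the kappaB site at 125 and 171 bases before the start, through an interferon regulatory factor core and a cyclic AMP response core, to 2 CCAAT boxes. They were identical at 177 of 203 aligned bases (87.2%). B2m held the same motifs apart from the kappaB site and 1 of the CCAAT boxes. Tap1 held a cyclic AMP response core and a CCAAT box, and Tapbp held 2 CCAAT boxes only. None of the 5 windows held the gamma-activated site TTCNNNGAA. Of all 32851 windows of this length, 0.457% held the kappaB letters, 21.3% the interferon regulatory factor core, 7.02% the gamma-activated site, 17.8% the cyclic AMP response core and 33.8% the CCAAT box. RefSeq annotates 2 starts for H2-K1, of which the downstream one was used. The H2-K1 window (34000334-34000583) therefore lies inside the annotated span of the gene (33996012-34000619), and its distances count from the downstream start. These matches describe letters, not binding.

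**Figure D1:**
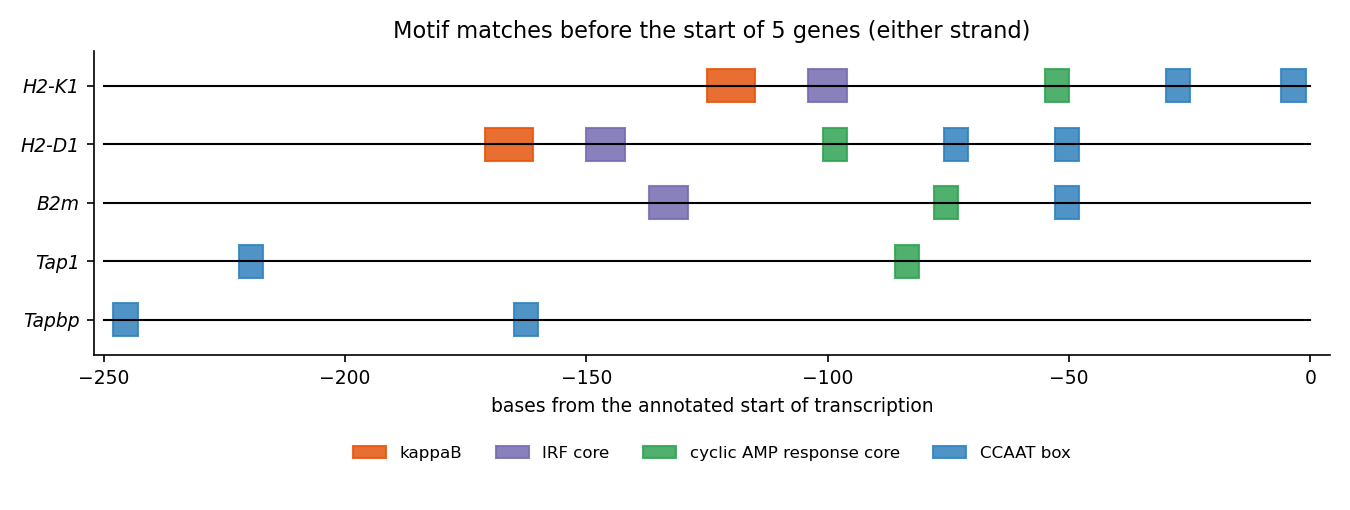
Motif matches in the 250 bases before the annotated start of transcription of 5 class I presentation genes (x axis: bases from the start; 1 line per gene; coloured boxes: matches on either strand). H2-K1 and H2-D1 carry the same 5 matches in the same order, and Tapbp carries 2 CCAAT boxes only.

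H2-K1, a classical class I heavy chain gene (chr17:33996012-34000619 on GRCm38.p6), was far lower in knockout than in wild-type cells at 48 h. It had 3.53 and 3.09 FPKM in knockout cells at 48 h, against 2.28 and 2.42 FPKM in knockout cells in 2iL. Wild-type cells held 39.6 and 40.0 FPKM at 48 h, against 5.35 and 7.24 FPKM in 2iL. No 2 groups overlapped, and both knockout groups lay below both wild-type groups. On the log2(FPKM + 1) scale used for all differences below, which understates the change of low genes, the 48 h difference was 0.36 (SE 0.12) in knockout cells and 2.496 (SE 0.12) in wild-type cells. At 48 h the mean of the knockout cells was 0.0832 times that of the wild-type cells, a log2 difference of −3.24 (SE 0.12), and in 2iL the log2 difference was −1.11 (SE 0.12).

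H2-D1, the other classical heavy chain gene (chr17:35263094-35267497), followed the same order in wild-type cells but not between the lines in 2iL. Knockout cells had 7.74 and 8.17 FPKM at 48 h, against 5.43 and 6.25 FPKM in 2iL. In wild-type cells the values were 15.97 and 18.3 FPKM at 48 h, against 4.85 and 5.42 FPKM in 2iL. In 2iL the knockout mean was 1.14 times the wild-type mean and the libraries just missed overlapping, with knockout means of 5.84 ± 0.584 FPKM and wild-type means of 5.13 ± 0.403 FPKM (SD, n = 2 each). They stood apart at 48 h, at 7.95 ± 0.305 FPKM in knockout cells and 17.1 ± 1.66 FPKM in wild-type cells (SD, n = 2 each). The log2 difference between 48 h and 2iL was 0.39 (SE 0.10) in knockout cells and 1.56 (SE 0.10) in wild-type cells.

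H2-Bl is a class I heavy chain-like gene (chr17:36080110-36084249) that RefSeq lists as a transcribed pseudogene, and in knockout cells it ran against H2-K1 and H2-D1. It had 2.91 and 2.95 FPKM in knockout cells at 48 h, against 58.9 and 62.2 FPKM in knockout cells in 2iL. Wild-type cells held 10.4 and 9.83 FPKM at 48 h, against 2.95 and 5.20 FPKM in 2iL. The knockout libraries in 2iL lay above all others, and the change had opposite signs in the lines, with log2 differences of −3.97 (SE 0.18) in knockout cells and 1.17 (SE 0.18) in wild-type cells. The knockout minus wild-type difference was 3.64 (SE 0.18) in 2iL and −1.50 (SE 0.18) at 48 h. H2 paralogs are so alike that reads can be split between them, and no source used here states how such reads were counted.

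Since reads may move among the 3 heavy chain genes, their FPKM values were also added. The sum was 14.2 and 14.2 FPKM in knockout cells at 48 h, against 66.6 and 70.9 FPKM in knockout cells in 2iL. Wild-type cells reached 66.0 and 68.1 FPKM at 48 h, against 13.1 and 17.9 FPKM in 2iL. The 2 lines therefore held similar sums in opposite conditions, but from different genes: H2-Bl gave most of it in knockout cells in 2iL, and H2-K1 in wild-type cells at 48 h. Without H2-Bl, the sum of H2-K1 and H2-D1 was 11.3 and 11.3 FPKM in knockout cells at 48 h and 7.70 and 8.67 FPKM in 2iL. The wild-type sums without it were 55.6 and 58.3 FPKM at 48 h and 10.2 and 12.7 FPKM in 2iL.

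**Figure D2:**
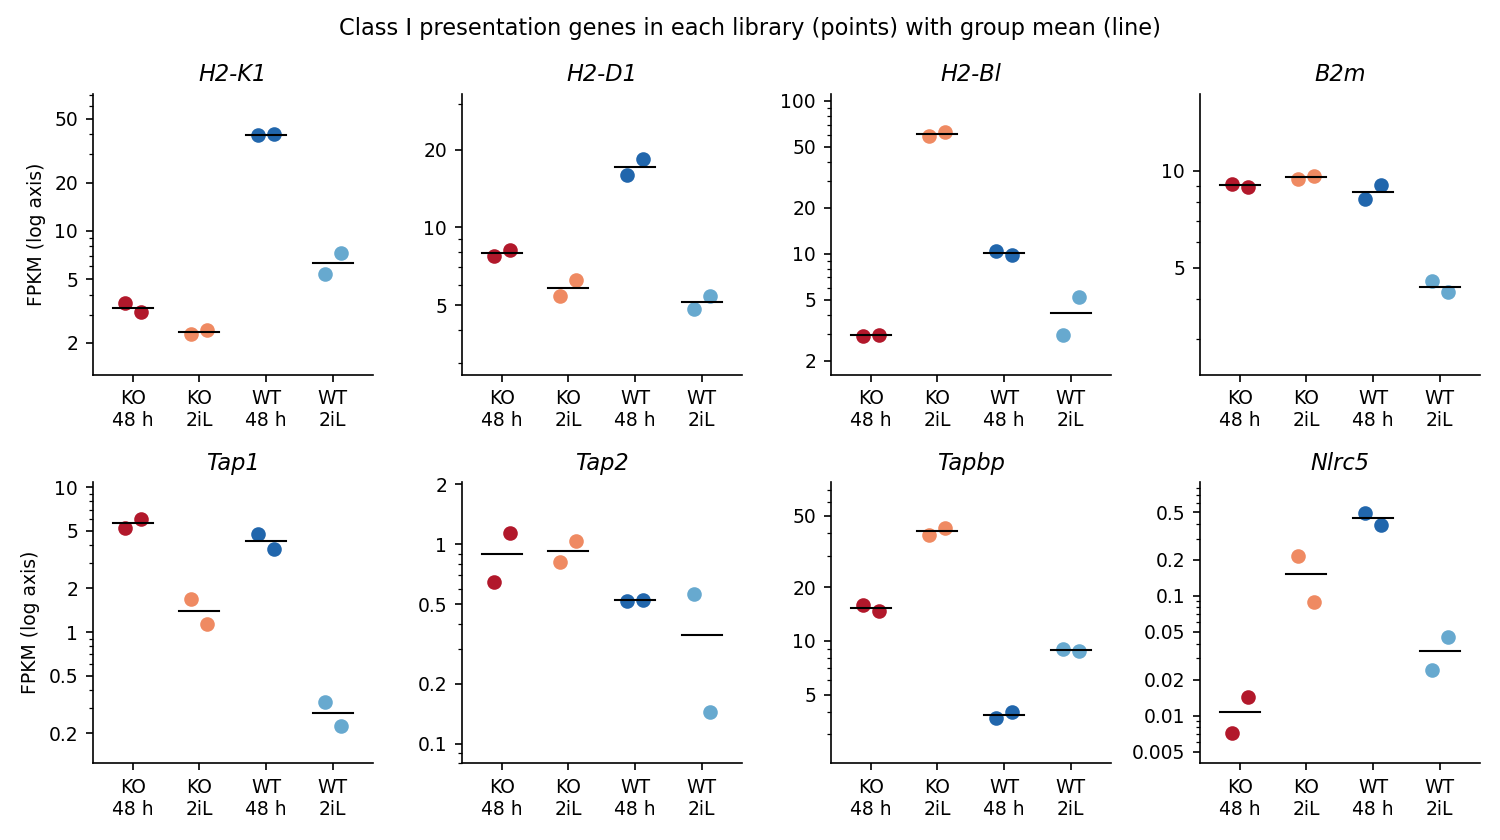
FPKM of the 8 class I presentation genes in each library (log y axis; 1 panel per gene; points: the 2 libraries of a group; line: group mean; KO: Dgcr8-/-, WT: wild type). H2-K1 and H2-D1 are highest in wild-type cells at 48 h, H2-Bl and Tapbp in knockout cells in 2iL, and B2m is lowest in wild-type cells in 2iL.

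B2m, the shared light chain gene (chr2:122147687-122153082), lay between 8.18 and 9.66 FPKM in 3 of the groups and lower in the fourth. It had 9.09 and 8.93 FPKM in knockout cells at 48 h, against 9.43 and 9.66 FPKM in 2iL. In wild-type cells it had 8.18 and 9.07 FPKM at 48 h, against 4.55 and 4.20 FPKM in 2iL. The knockout and wild-type values overlapped at 48 h, and the wild-type libraries in 2iL lay below all others. The log2 difference between 48 h and 2iL was −0.07 (SE 0.07) in knockout cells and 0.84 (SE 0.07) in wild-type cells.

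Tap1 encodes the first subunit of the peptide transporter (chr17:34187556-34197225), and it was higher at 48 h in both lines. It had 5.21 and 6.03 FPKM in knockout cells at 48 h, against 1.68 and 1.13 FPKM in 2iL. Wild-type cells had 4.76 and 3.72 FPKM at 48 h, against 0.328 and 0.224 FPKM in 2iL. Within each line the groups did not overlap, and the ratio of means was 4.00 in knockout cells and 15.4 in wild-type cells, the larger one resting on a low 2iL level. The log2 difference was 1.47 (SE 0.15) in knockout cells and 2.03 (SE 0.15) in wild-type cells, where it was 3.53 with a pseudocount of 0.1. In 2iL the knockout level was 5.09 times the wild-type level, and at 48 h it was 1.33 times.

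Tap2, the gene of the partner subunit (chr17:34204479-34216321), stayed near or below 1 FPKM throughout. Knockout cells had 0.649 and 1.14 FPKM at 48 h, against 0.812 and 1.04 FPKM in 2iL. Wild-type cells had 0.520 and 0.528 FPKM at 48 h, against 0.563 and 0.144 FPKM in 2iL. Within each line the 48 h and 2iL values overlapped, and the 4 knockout values all lay above the 4 wild-type values. Tap2 entered the tests only through 1 knockout library in each condition. The transporter genes thus differed in level: at 48 h, mean Tap1 was 5.62 FPKM and mean Tap2 0.896 FPKM in knockout cells, and mean Tap1 was 4.24 FPKM and mean Tap2 0.524 FPKM in wild-type cells.

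Tapbp encodes tapasin (chr17:33919478-33929290) and moved opposite to the classical heavy chains. It had 15.9 and 14.7 FPKM in knockout cells at 48 h, against 39.1 and 43.0 FPKM in 2iL. Wild-type cells had 3.71 and 4.00 FPKM at 48 h, against 8.96 and 8.79 FPKM in 2iL. It was lower at 48 h in both lines, by log2 differences of −1.36 (SE 0.07) in knockout cells and −1.02 (SE 0.07) in wild-type cells, with no overlap. The knockout level was 4.62 times the wild-type level in 2iL and 3.97 times at 48 h. All 4 knockout libraries lay above all 4 wild-type libraries.

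Nlrc5, the class I transactivator (chr8:94434335-94527272), was under 0.5 FPKM in every library and was not tested. It had 0.00722 and 0.0143 FPKM in knockout cells at 48 h, against 0.216 and 0.0892 FPKM in 2iL. Wild-type cells had 0.495 and 0.392 FPKM at 48 h, against 0.0240 and 0.0454 FPKM in 2iL. Wild-type values were higher at 48 h and knockout values lower at 48 h, with no overlap between any groups. With the depth of these libraries unknown, such levels may rest on few reads.

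The order of mean levels differed between the groups. FPKM is a level per length, so the genes can be ranked within a group. The ranks of H2-K1, H2-D1 and H2-Bl carry a limit, since their reads may be shared and the haplotypes of the lines were not tested. In knockout cells at 48 h, Tapbp led with a mean of 15.3 FPKM, ahead of B2m (9.01), H2-D1 (7.95), Tap1 (5.62), H2-K1 (3.31), H2-Bl (2.93), Tap2 (0.896) and Nlrc5 (0.0108), with no overlap between neighbours. In knockout cells in 2iL the order of mean FPKM was H2-Bl (60.6), Tapbp (41.1), B2m (9.54), H2-D1 (5.84), H2-K1 (2.35), Tap1 (1.41), Tap2 (0.928) and Nlrc5 (0.152), again with no overlap. In wild-type cells at 48 h it was H2-K1 (39.8), H2-D1 (17.1), H2-Bl (10.1), B2m (8.62), Tap1 (4.24), Tapbp (3.86), Tap2 (0.524) and Nlrc5 (0.444), where Tap1 and Tapbp overlapped. In wild-type cells in 2iL it was Tapbp (8.88), H2-K1 (6.30), H2-D1 (5.13), B2m (4.37), H2-Bl (4.07), Tap2 (0.353), Tap1 (0.276) and Nlrc5 (0.0347); H2-K1 overlapped H2-D1, H2-Bl overlapped both H2-D1 and B2m, and the transporter genes overlapped each other. By these values, and with that limit, wild-type cells at 48 h were the only group led by a classical heavy chain.

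**Figure D3:**
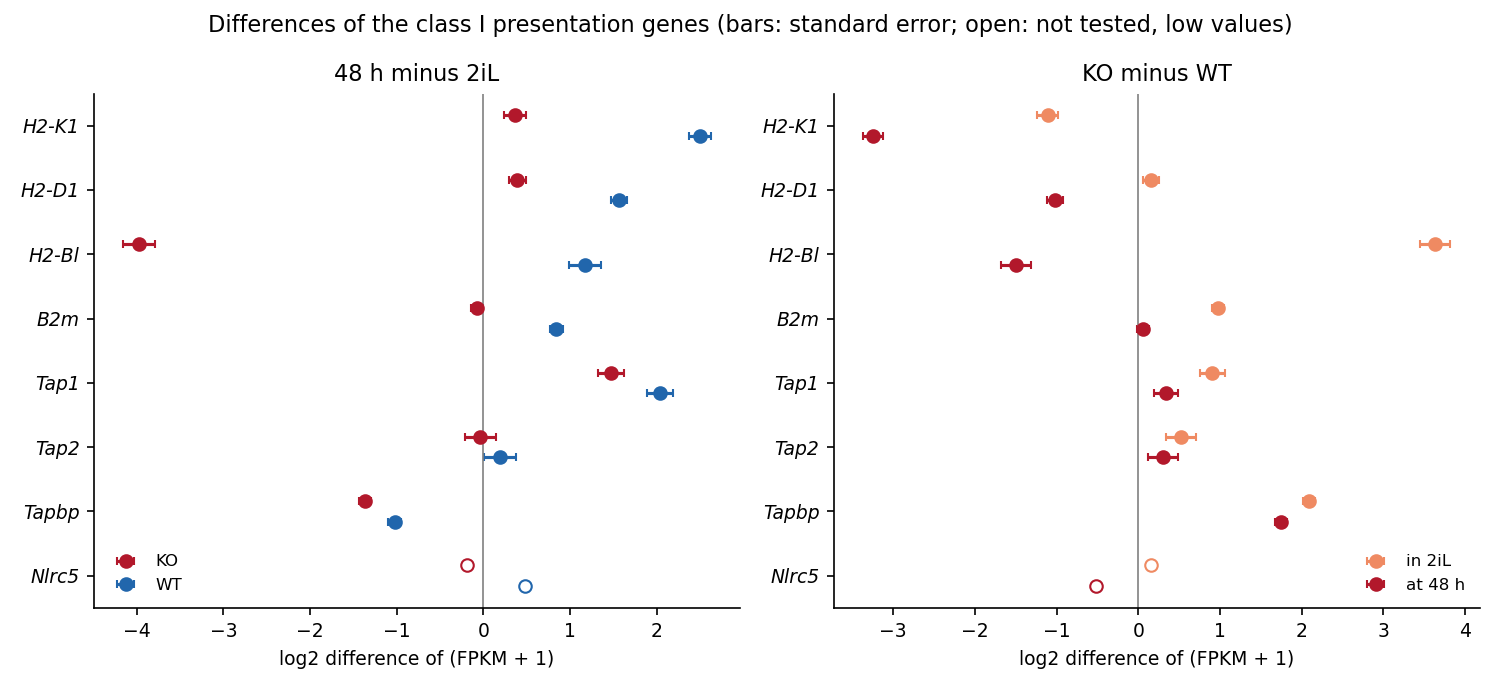
Log2 differences of (FPKM + 1) for the 8 genes: left, 48 h minus 2iL in knockout (KO) and wild-type (WT) cells; right, KO minus WT in 2iL and at 48 h (points: fitted difference; bars: standard error; open points: Nlrc5, not tested). The knockout 48 h difference lies left of the wild-type one for each gene, nearest for Tap2 (−0.03 against 0.19) and farthest for H2-Bl (−3.97 against 1.17); for Tap1 and Tap2 the interaction did not pass the threshold.

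Across the 7 tested genes the differences were set beside those of all 13172 tested entries, using limma on all 8 libraries with an adjusted p below 0.05 as the threshold. Because the genes were chosen with these values known, nothing is read from the counts. Between 48 h and 2iL, 5 of 7 passed in knockout cells (3 higher, 2 lower; median log2 difference −0.03), beside 48.3% of all entries (median 0.03); the count was 3 without knockout 48 h replicate 2 or without knockout 2iL replicate 1. In wild-type cells 6 of 7 passed (5 higher, 1 lower; median 1.17), beside 56.5% (median 0.03). For knockout against wild type in 2iL, 6 of 7 passed (5 higher, 1 lower; median 0.91), beside 63.4% (median −0.02). At 48 h 4 of 7 passed (1 higher, 3 lower; median 0.06), beside 71.8% (median −0.05). For the interaction, which is the knockout change by 48 h minus the wild-type change, 5 of 7 passed, all lower, and all 7 estimates were negative (median −0.91), beside 42.8% (median −0.01). The comparisons share libraries and are not independent of each other.

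The other genes of the pathway were taken from 6 lists of 91 genes, of which 71 were tested with limma, with p-values adjusted over all entries. Of the 71, 9 passed the filter through the libraries of 1 group alone. Beyond these, Erap1, Irf2, Ifngr2, Jak2, Oasl2, Rsad2, Gbp2 and Gbp3 reached 1 FPKM in libraries of both knockout groups and in no wild-type library. The counts of genes higher in knockout cells below therefore lean in part on genes admitted for being high there. By 48 h, 12 rose and 28 fell in knockout cells (median −0.14), where 26.5% of all entries rose and 21.8% fell. In wild-type cells 25 rose and 27 fell (median −0.04), where 30.9% of all entries rose and 25.6% fell. The knockout count of rises was 6 without knockout 48 h replicate 1 or without replicate 2 of that group. Between the lines, 43 were higher and 11 lower in knockout cells in 2iL, where 30.6% of all entries were higher and 32.8% lower. At 48 h, 41 were higher and 17 lower in knockout cells, where 33.3% of all entries were higher and 38.5% lower. The median of the 71 was 0.40 in both conditions, beside medians of −0.02 in 2iL and −0.05 at 48 h over all entries. The interaction was higher for 22 and lower for 26 (median −0.15), beside 21.1% and 21.7% of all entries.

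Among 12 tested class I heavy chain genes other than the 3 above, 2 rose and 6 fell by 48 h in knockout cells (median −0.26), where 26.5% of all entries rose and 21.8% fell. In wild-type cells 7 of the 12 rose and 4 fell (median 0.58), where 30.9% of all entries rose and 25.6% fell. H2-Q4, a class Ib gene, moved in the directions of H2-Bl, with 2.07 and 2.41 FPKM in knockout cells at 48 h, against 7.90 and 8.29 FPKM in 2iL. Wild-type cells had 9.67 and 9.62 FPKM of H2-Q4 at 48 h, against 2.11 and 1.88 FPKM in 2iL. The H2-Q4 change was −1.49 (SE 0.08, limma adjusted p = 1.2e-05) in knockout cells and 1.83 (SE 0.08, adjusted p = 2.8e-06) in wild-type cells, and the interaction was −3.32 (adjusted p = 3.8e-06). H2-T22 had called changes of the same signs, −0.94 in knockout cells and 0.50 in wild-type cells. For H2-M3 the differences were −0.68 and 0.76, as a description only. It reached 1 FPKM only in the knockout 2iL libraries (1.19 and 2.06) and in 1 wild-type 48 h library (1.17). H2-M3 thus passed the filter only through groups where it was high. H2-Q7, H2-Q6 and H2-Q2 had wild-type log2 differences of 2.10, 1.62 and 1.59 between 48 h and 2iL, given without p because each entered the tests through the wild-type 48 h libraries alone. In all, 5 of the 12 genes passed the filter through 1 group alone, so that they had to differ and the counts carry no weight of their own. The Qa region genes share reads with each other and with H2-K1 and H2-D1, so these values may not be separate.

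H2-M5 and Fcgrt were higher in knockout than in wild-type cells at 48 h, unlike H2-Q4. H2-M5, an M region class Ib gene, had 47.0 and 45.0 FPKM in knockout cells at 48 h, against 2.30 and 2.49 FPKM in wild-type cells at 48 h, a log2 difference of 3.79 (SE 0.06, limma adjusted p = 3.8e-08). In 2iL the knockout cells had 54.1 and 58.4 FPKM of H2-M5, against 35.7 and 34.2 FPKM in wild-type cells. Fcgrt, the heavy chain of the neonatal Fc receptor, which also pairs with beta-2 microglobulin, had 8.24 and 7.97 FPKM in knockout cells at 48 h, against 0.789 and 0.859 FPKM in wild-type cells (log2 difference 2.32, SE 0.07, adjusted p = 4.2e-07). Both genes fell by 48 h in wild-type cells. In knockout cells H2-M5 also fell by 48 h, by a smaller log2 difference of −0.28 (limma adjusted p = 0.0065), whereas Fcgrt rose by 0.60 (adjusted p = 0.00055).

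**Figure D4:**
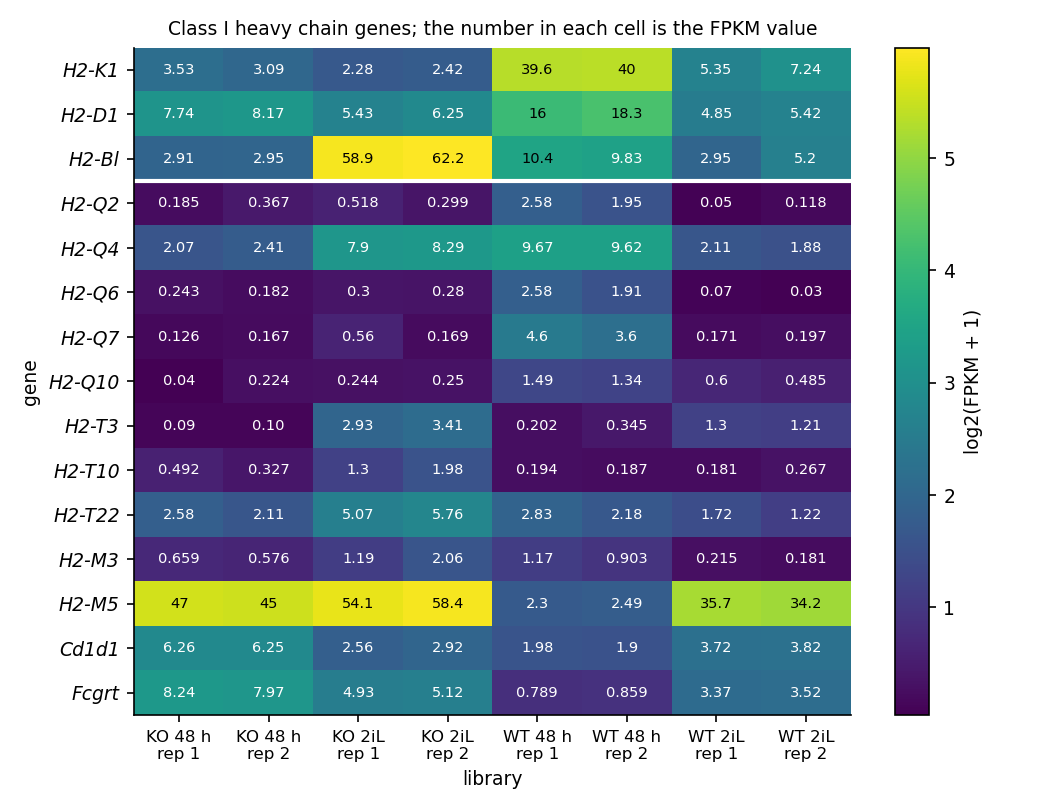
Class I heavy chain genes in the 8 libraries (columns; KO: Dgcr8-/-, WT: wild type; colour: log2(FPKM + 1); number in each cell: FPKM). H2-Bl and H2-Q4 are high in knockout cells in 2iL and again above wild-type 2iL levels in wild-type cells at 48 h, whereas H2-M5 drops to 2.30 and 2.49 FPKM in wild-type cells at 48 h alone.

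Genes of peptide generation gave 2 rises and 6 falls of 10 by 48 h in knockout cells (median −0.36), where 26.5% of all entries rose and 21.8% fell. They gave 4 rises and 3 falls in wild-type cells (median 0.18), where 30.9% of all entries rose and 25.6% fell. The interferon-inducible proteasome subunit gene Psmb9, the head-to-head neighbour of Tap1, had 0.510 and 0.941 FPKM in knockout cells at 48 h, against 0.502 and 0.694 FPKM in 2iL. Wild-type cells had 1.71 and 1.98 FPKM of Psmb9 at 48 h, against 0.251 and 0 FPKM in 2iL (log2 difference 1.34). Psmb9 reached 1 FPKM in the wild-type 48 h libraries alone, and so passed the filter only through them. Psmb9 and Tap1 therefore differed in knockout cells, where Tap1 was higher at 48 h and the Psmb9 values overlapped. Psmb8, its sister subunit gene, reached 1.52 and 2.72 FPKM in knockout cells in 2iL, the only libraries through which it passed the filter, and was listed at 0 in both wild-type libraries in 2iL. Psme2, a subunit of the proteasome activator PA28, had 44.7 and 43.2 FPKM in knockout cells at 48 h, against 113 and 99.8 FPKM in 2iL (−1.26, SE 0.08, adjusted p = 1.9e-05). Erap1, the peptidase that trims peptides in the endoplasmic reticulum, was higher in knockout cells in 2iL, at 3.82 and 3.61 FPKM against 0.310 and 0.327 FPKM in wild-type cells (1.84, SE 0.11). Erap1 reached 1 FPKM in knockout libraries alone and passed the filter only through them, so no p is given.

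Of 7 peptide loading partners, 3 were higher and none lower in knockout cells in 2iL (median 0.09), and 5 were higher and 1 lower at 48 h (median 0.31), all by less than 1 on the log2 scale. The factors that bind class I promoters gave 8 higher and 4 lower of 17 in knockout cells in 2iL (median 0.30), and 9 higher and 4 lower at 48 h (median 0.36). Beside both lists, 30.6% of all entries were higher and 32.8% lower in 2iL, and 33.3% were higher and 38.5% lower at 48 h. The counts of the 2 lists were not tested against these shares, and nothing is read from them. Irf1, an interferon-induced activator, had 20.8 and 18.6 FPKM in knockout cells at 48 h, against 7.64 and 6.77 FPKM in wild-type cells (log2 difference 1.34, SE 0.08, limma adjusted p = 4.7e-06). In 2iL the knockout cells had 36.7 and 38.8 FPKM of Irf1, against 16.1 and 15.99 FPKM in wild-type cells. Irf1 was thus higher in knockout cells in both conditions. Rfxank was instead lower in knockout cells in both, with log2 differences of −0.50 in 2iL (limma adjusted p = 0.0027) and −1.03 at 48 h (adjusted p = 5.1e-05).

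Interferon receptor and signalling genes were 8 higher and 1 lower of 10 in knockout cells in 2iL (median 0.74), and 9 higher and 0 lower at 48 h (median 0.63). Over all entries, 30.6% were higher and 32.8% lower in 2iL, and 33.3% were higher and 38.5% lower at 48 h. The receptor chain gene Ifngr2 had 8.08 and 7.91 FPKM in knockout cells in 2iL, against 0.880 and 0.854 FPKM in wild-type cells (log2 difference 2.27, SE 0.16). Jak2, the kinase bound to that receptor, had 5.28 and 5.44 FPKM in knockout cells at 48 h, against 0.850 and 0.836 FPKM in wild-type cells (1.79, SE 0.09). Ifngr2 and Jak2 reached 1 FPKM in knockout libraries alone and passed the filter only through them, so no p is given for either.

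Of 15 tested interferon-stimulated genes, 11 were higher and 1 lower in knockout cells in 2iL (median 1.36), and 12 higher and 2 lower at 48 h (median 1.31). Over all entries, 30.6% were higher and 32.8% lower in 2iL, and 33.3% were higher and 38.5% lower at 48 h. Oasl2, Rsad2, Gbp2, Gbp3 and Parp14 reached 1 FPKM in knockout libraries alone, and so passed the filter only through them. The counts of higher genes and the medians lean in part on these genes. The antiviral membrane protein gene Ifitm1 had 777 and 729 FPKM in knockout cells at 48 h, against 80.7 and 85.5 FPKM in wild-type cells (3.16, SE 0.07, limma adjusted p = 1.2e-07). Oasl2, of the oligoadenylate synthetase family, had 5.07 and 5.79 FPKM in knockout cells in 2iL, against 0 and 0.126 FPKM in wild-type cells (2.60, SE 0.13, given without p for the reason above). Many genes of the same response stayed low in all groups: 10 of the 25 listed were not tested, among them Isg15, Ifit1, Usp18 and Mx1, each under 0.5 FPKM in every library and named after their values were seen. By 48 h, 0 of the 15 rose and 8 fell in knockout cells, where 26.5% of all entries rose and 21.8% fell. In wild-type cells 4 rose and 8 fell, where 30.9% of all entries rose and 25.6% fell.

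**Figure D5:**
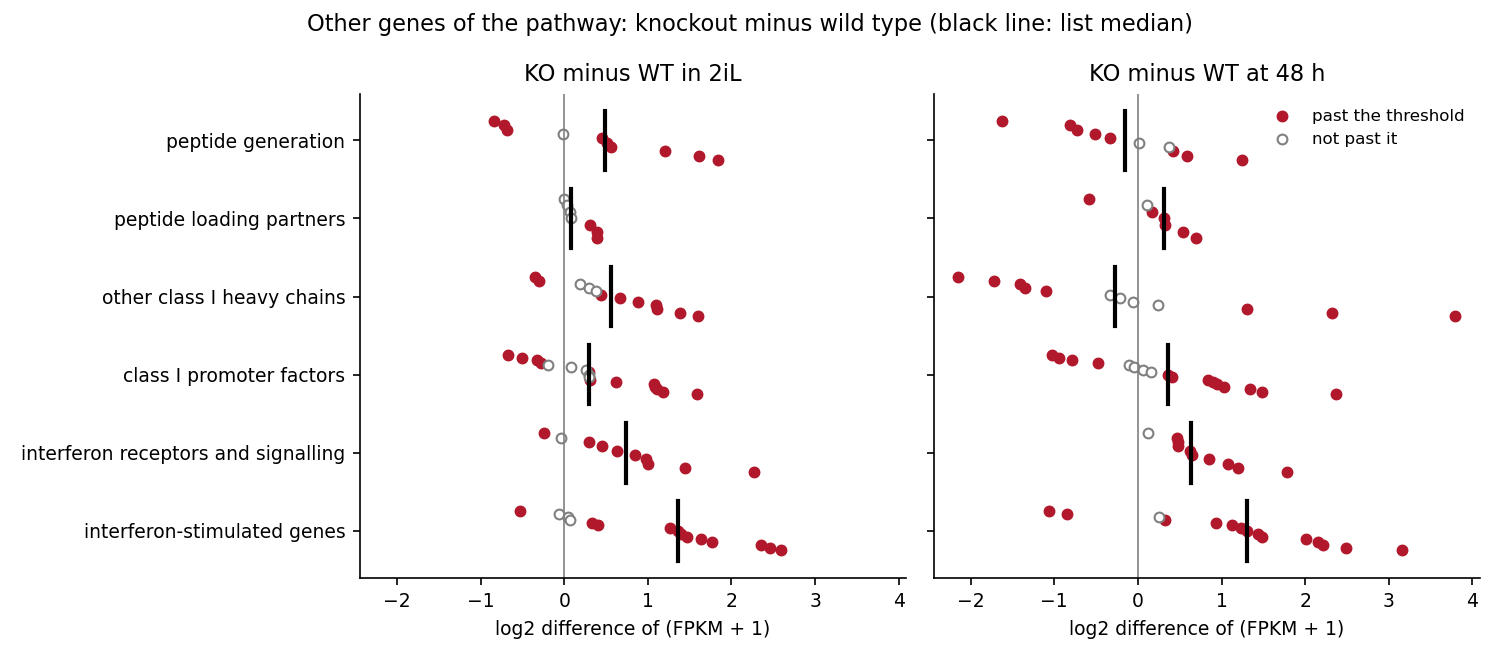
Log2 differences of (FPKM + 1), knockout minus wild type, for 71 other genes of the pathway in 6 lists, in 2iL (left) and at 48 h (right); each point is a gene, red where the limma adjusted p was below 0.05, and black lines are list medians. The interferon-stimulated genes have the highest medians, 1.36 in 2iL and 1.31 at 48 h.

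The genes whose 4 group means were nearest to those of H2-K1, after each was centred on its own mean, were Bspry (root mean square distance 0.11 on the log2 scale), Tspan7 (0.20), Pla2g12a (0.21), Tro (0.23) and Fndc4 (0.23), out of 13165 candidates. Bspry had 0.884 and 0.834 FPKM in knockout cells at 48 h and 0.211 and 0.298 FPKM in 2iL. Its wild-type values were 15.2 and 15.1 FPKM at 48 h and 2.29 and 2.37 FPKM in 2iL. The genes nearest to B2m were Ppfibp1 (0.03), Sept4 (0.03), Sos2 (0.05), Ssh2 (0.07) and Ulk2 (0.07). Ppfibp1 had 15.8 and 15.99 FPKM in knockout cells at 48 h, 16.1 and 15.8 FPKM in knockout cells in 2iL, 14.8 and 15.0 FPKM in wild-type cells at 48 h and 7.98 and 7.59 FPKM in wild-type cells in 2iL. The 7 tested class I presentation genes were not among the candidates.

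Markers of other cells were measured because feeder fibroblasts and blood cells carry much class I, and in bulk RNA fewer cells of a type and less RNA per cell cannot be told apart. The 10 fibroblast markers summed to 19.5 and 19.7 FPKM in knockout cells at 48 h, against 2.56 and 2.52 FPKM in 2iL, and to 21.9 and 21.7 FPKM in wild-type cells at 48 h, against 3.09 and 3.36 FPKM in 2iL. Thy1, Tagln and Dcn made up most of it, whereas 7 of the 10, among them Col1a1, Col1a2 and Col3a1, stayed under 1 FPKM in every library. The sum was higher at 48 h in both lines, but Dcn was highest in knockout cells at 48 h (11.9 and 12.6 FPKM) and Tagln in wild-type cells at 48 h (9.02 and 9.38 FPKM). The 10 leukocyte markers summed to 99.1 and 97.9 FPKM in knockout cells at 48 h and 122 and 127 FPKM in knockout cells in 2iL, against 13.6 and 17.3 FPKM in wild-type cells at 48 h and 70.4 and 62.4 FPKM in wild-type cells in 2iL. Laptm5, a lysosomal membrane protein gene, made up much of the leukocyte sum, with 45.3 to 55.1 FPKM in the other groups and 2.51 and 3.64 FPKM in wild-type cells at 48 h. The members differed in direction. The T-cell receptor component Cd3g was at 22.5 and 24.5 FPKM in knockout cells in 2iL and under 0.1 FPKM in the wild-type libraries. Coro1a had 1.86 and 1.59 FPKM in knockout cells at 48 h, against 7.41 and 9.64 FPKM in wild-type cells at 48 h. Ptprc, which defines blood cells, was under 0.05 FPKM in every library. Of 8 embryonic stem cell markers, 7 fell and 1 rose by 48 h in each line, and 7 were higher and 1 lower in knockout than in wild-type cells at 48 h. By 48 h, 21.8% of all entries fell and 26.5% rose in knockout cells, and 25.6% fell and 30.9% rose in wild-type cells. Between the lines at 48 h, 33.3% of all entries were higher and 38.5% lower in knockout cells. The pluripotency factor gene Nanog had 56.1 and 56.7 FPKM in knockout cells at 48 h, against 273 and 298 FPKM in 2iL, and 5.38 and 5.31 FPKM in wild-type cells at 48 h, against 208 and 216 FPKM in 2iL. Pou5f1 varied less, between 695 and 990 FPKM in all libraries. The part of other cells in the class I values was not tested beyond these levels.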

How the data were processed

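Polyadenylated RNA of 8 libraries was analysed, 2 in each of 4 groups. Libraries were made by a dUTP protocol, per the labels' protocols. The authors deposited FPKM values per gene, and STAR 2.5.0, Cufflinks 2.2.1 and build mm10 are named per the submitters' processing notes; the strand setting and the treatment of reads shared between paralogs were not given in the sources used here. FPKM summed to 475271 to 548453 per library and read numbers are not known, so depth is unknown and no counting error is given; the correlation of replicates on the log2 scale was 0.987 to 0.991. Of 41202 Ensembl identifiers, 40071 matched a symbol; 56 repeated entries were kept apart.

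Values were taken as log2(FPKM + 1) and fitted with limma 3.58.1 in R 4.3.3 (4 group means, intensity trend, no replicate block) for the 13172 entries with at least 1 FPKM in at least 2 libraries. The script was tested on simulated data. Adjusted p-values are Benjamini-Hochberg values over all entries, called below 0.05. The members and the lists were chosen with earlier results of these data known. Pathway genes named are at most 5 per list and comparison, past the threshold with a log2 difference of at least 1. Alternatives were another pseudocount, other filters, other scalings, a replicate block, fits of single comparisons and leaving out each library. The small RNA libraries were not used here. The values of 1 listed gene are not reported here, although it is included in the counts. Promoter windows and gene positions are from RefSeq.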

Additional observations from a re-analysis of the deposited data

Results flagged for a closer look

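For 3 of the chosen genes, both 48 h libraries lay below both 2iL libraries in knockout cells and above both in wild-type cells. The knockout change minus the wild-type change was −5.14 for H2-Bl, −0.91 for B2m and −0.67 for Nlrc5 on the log2(FPKM + 1) scale. As these genes were chosen with the values known, no p is given and the difference counts as not tested; the knockout difference of B2m was −0.07 (SE 0.07) and did not pass the threshold, and Nlrc5 was under 0.5 FPKM throughout.

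For other genes of the pathway the difference between the 48 h changes was itself tested in the limma interaction. Among class I heavy chains it was −3.32 for H2-Q4, 3.12 for H2-M5 and 1.88 for Fcgrt, with adjusted p-values of 3.8e-06, 1.2e-06 and 2.1e-05 in that order. For peptide generation it was −1.42 for Erap1. Among promoter factors and receptors it was −1.21 for Rfxap and −1.08 for Ifngr2. Among interferon-stimulated genes it was −2.35 for Oasl2, 2.07 for Ddx58, 1.39 for Trim25 and 1.39 for Ifitm1. Of the genes just named, Erap1, Ifngr2 and Oasl2 passed the filter through knockout libraries alone. The values of −2.34 for H2-Q7, −1.73 for H2-Q2, −1.24 for Psmb9, −1.24 for Psmb8 and −1.03 for Parp14 are a description only, since the first 3 genes passed the filter through the wild-type 48 h libraries alone and the other 2 through the knockout 2iL libraries alone.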

How the results depend on the processing

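Of 150 recomputed counts of called genes, 144 stayed within 1.5 times the reported one. With a mean FPKM of at least 5, which leaves 45 of the 71 pathway genes, the count of called pathway genes was 25 in place of 40 (knockout, 48 h against 2iL), 33 in place of 54 (knockout against wild type, 2iL), 38 in place of 58 (48 h) and 26 in place of 48 (interaction). When single libraries were left out, the called members numbered 3 to 5 for the knockout 48 h change. The 508 recomputed log2 differences of members gave 53 that moved by at least the SD between replicates; 502 kept their sign, and no called difference reversed. The 84 named differences of pathway genes kept their sign in all 1209 recomputations. They had been picked as the largest calls, and a gene removed by a stricter filter was not recomputed, so little weight rests on this. With a pseudocount of 0.1 the wild-type Tap1 difference was 3.53 in place of 2.03. Same replicate numbers were not treated as pairs, since deviations of same-numbered libraries correlated at −0.153 to 0.18. With a replicate block, called pathway genes numbered 36, 50, 53, 59 and 43 (knockout change, wild-type change, 2iL, 48 h, interaction), against 40, 52, 54, 58 and 48 without it. A crossed pairing of the wild-type libraries, added after seeing the data, gave 49 for the wild-type change. Unknown depth limits what can be said of Nlrc5, Tap2 and other genes near or below 1 FPKM.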

Other observations

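Of 11 class II genes listed, 7 were not tested, each under 1 FPKM in every library, and the class II transactivator gene Ciita stayed under 0.05 FPKM in every library. H2-Eb1, a class II beta chain gene, was higher in knockout cells, at 12.8 and 12.2 FPKM in 2iL, against 0.972 and 0.966 FPKM in wild-type cells in 2iL (log2 difference 2.78, SE 0.08). At 48 h it had 3.69 and 3.65 FPKM in knockout cells, against 0.196 and 0.242 FPKM in wild-type cells (log2 difference 1.94). H2-DMb1, a chain of the class II peptide editor, had 4.41 and 5.15 FPKM in knockout cells in 2iL, against 0.708 and 0.653 FPKM in wild-type cells (log2 difference 1.78). H2-Eb1 and H2-DMb1 reached 1 FPKM in knockout libraries alone and passed the filter only through them, so no p is given for either.

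Genes of the MHC region with other functions were also counted. Of 33 tested, 3 were higher and 12 lower in knockout cells in 2iL (median −0.12), and 13 were higher and 13 lower at 48 h (median 0.07). Over all entries, 30.6% were higher and 32.8% lower in 2iL, and 33.3% were higher and 38.5% lower at 48 h. By 48 h, 11 rose and 3 fell in knockout cells, where 26.5% of all entries rose and 21.8% fell. In wild-type cells 8 rose and 9 fell, where 30.9% of all entries rose and 25.6% fell. The counts were not tested against these shares, and nothing particular to the region is read from them.

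Around H2-Bl, 18 genes within 200 kb were tested, a window chosen after the values were seen; 2 rose and 7 fell by 48 h in knockout cells, and 6 rose and 7 fell in wild-type cells. Over all entries 48.3% were called in knockout cells and 56.5% in wild-type cells, and nothing particular to the region is read from the counts. H2-T22, whose start lies 43 kb away, had 2.58 and 2.11 FPKM in knockout cells at 48 h, against 5.07 and 5.76 FPKM in 2iL (limma adjusted p = 0.0016). In wild-type cells H2-T22 rose, with 2.83 and 2.18 FPKM at 48 h, against 1.72 and 1.22 FPKM in 2iL (adjusted p = 0.021). The 2 genes 61.6 and 63.7 kb away on the other side, Gm10499 and Gm8909, fell in both lines. Gm10499 had 17.0 and 15.9 FPKM in knockout cells at 48 h, against 40.6 and 44.0 FPKM in 2iL, and 2.30 and 2.65 FPKM in wild-type cells at 48 h, against 14.3 and 15.96 FPKM in 2iL. The heavy chain genes H2-T10 and H2-T3 lie 35.8 and 105 kb away on that same side. Their log2 differences by 48 h were −0.89 and −1.93 in knockout cells and −0.04 and −0.83 in wild-type cells. Neither therefore shared the wild-type rise of H2-T22. Reads of H2-T22 and H2-Bl may also be shared.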
